A study of Mus musculus with 6 samples.

Results

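The centromere, kinetochore and spindle checkpoint genes described here are the 47 rows, among 22770 gene rows of the deposited count table, whose symbols carry the centromere protein stem (Cenp and a letter) or name a known partner: Hjurp, Oip5 and genes of the Mis18 stem, the Mis12, Ndc80 and Ska complex genes, Knl1 and Zwint, Incenp, Birc5 and Cdca8, and the Bub, Mad and Ttk checkpoint genes. The rule reads the symbols alone, although it was set with earlier results of these data known. Their messages were measured in mouse round spermatids, the haploid germ cells that follow meiosis, in 3 libraries labelled Eif5a SKO and 3 labelled wild type. The spermatids came from testes of mice at postnatal day 28, were isolated by fluorescence-activated cell sorting, and were mostly at step 8, when the round cell begins to elongate. The labels do not expand SKO (the count columns carry the letters cKO), and the strain, the Cre line, the deleted exons and the number of animals behind each library are not given in the labels. Smart-seq2 was used, which copies polyadenylated RNA into cDNA and amplifies it by PCR without molecular identifiers, so counting intervals and floors cover counting error only.

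A centromere is the stretch of a chromosome whose nucleosomes carry the histone H3 variant CENP-A, placed there by the chaperone HJURP and the Mis18 proteins. A constitutive set of inner kinetochore proteins sits on these nucleosomes and holds the outer kinetochore, whose Ndc80 complex grips microtubules when the chromosome is pulled to a pole. Kinetochores without a microtubule are sensed by the spindle checkpoint, whose Mad2, BubR1 and Bub3 proteins hold CDC20 and so keep the anaphase promoting complex waiting. A round spermatid has completed its last division, and CENP-A is among the nucleosome components known to stay on sperm DNA while most histones are replaced by protamines. Cenpa and Cenpb themselves were not analysed here, and the CENP-C gene stands in the table as Cenpc1.

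Eif5a, the gene of a translation factor that keeps ribosomes from stalling, had 333, 338 and 270 counts in the SKO libraries, against 41149, 36162 and 41278 in the wild-type libraries. Library totals were 52055193 to 60970931 counts. Along the second principal component of all genes, which held 13.5% of the variance, SKO replicate 3 (-71.4) stood apart from SKO replicates 1 and 2 (40.3 and 37.6), so values are given library by library. The 14 round spermatid markers summed to 9779 to 11170 CPM in SKO libraries and to 6638 to 7256 CPM in wild-type libraries, where CPM is a gene's count scaled to the effective size of its library. Sertoli cell markers, from somatic cells that nurse the germ cells, summed to 47.4 to 175 CPM in SKO and 3.46 to 11.8 CPM in wild type (8 of 15 listed markers were in the table), and early meiotic markers to 377 to 495 CPM in SKO and 337 to 392 CPM in wild type. Of the 9 early meiotic markers 2 were called higher and 3 lower by edgeR (21.2% and 20.9% of all genes tested), with a median log2 fold change of -0.030. Sycp3 alone stood at 139, 164 and 128 CPM in SKO and 42.96, 33.8 and 45.2 CPM in wild type. Late meiotic and division markers summed to 3861 to 5130 CPM in SKO and 4065 to 4147 CPM in wild type, and spermatogonial markers to 29.4 to 32.2 CPM in SKO and 35.0 to 37.9 CPM in wild type. Elongating spermatid markers summed to 6951 to 7563 CPM in SKO and 4584 to 5108 CPM in wild type, Leydig cell markers to 8.02 to 44.6 CPM in SKO and 1.26 to 21.6 CPM in wild type, and peritubular, endothelial and immune markers to 19.0 to 44.2 CPM in SKO and 14.1 to 23.0 CPM in wild type. By edgeR, 9 of 14 round spermatid and 7 of 10 elongating spermatid markers were called higher and 0 lower. Called higher were also 7 of 8 Sertoli and 3 of 6 Leydig cell markers, with 0 lower. Late meiotic and division markers had 2 of 10 higher and 0 lower, and spermatogonial markers 0 of 9 higher and 3 lower. Of the 8 peritubular, endothelial and immune markers tested, 2 were called higher and 2 lower. The defining round spermatid markers were thus present in all 6 libraries, and the part of other cells in the values below was not tested. In a bulk sample, fewer cells of a type and less RNA per cell cannot be told apart.

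All 47 genes passed the filter on low counts, and 18 of them changed between the genotypes in edgeR's quasi-likelihood test (adjusted p under 0.05, Benjamini-Hochberg over all 19776 genes tested). That is 38.3% of the members, against 42.0% of all genes tested, so this group was called about as often as the transcriptome as a whole. Of the 18, 13 were higher in SKO (21.2% of all genes tested were called higher) and 5 were lower (20.9% of all genes tested). With library totals in place of the TMM factors the split was 9 higher and 12 lower (14.3% and 28.7% of all genes tested). The genes called lower were Bub3, Bub1 and Bub1b of the checkpoint, Dsn1 of the outer kinetochore and the CENP-A chaperone gene Hjurp. Those called higher were Cenpw, Cenpq, Cenph, Cenpx, Cenps and Cenpp of the inner kinetochore, Knl1 and Spc24 of the outer kinetochore, Ska2, Birc5, Cenpf, Cenpv and Mad2l2. Most changes were modest. Past a 2-fold change lay 3 genes called higher, Ska2, Cenpw and Cenpq (11.7% of all genes tested), and 1 called lower, Bub3 (13.0% of all genes tested). The SKO values lay wholly above the wild-type values for 15 members (27.3% of all genes tested) and wholly below them for 6 (28.3%). The median log2 fold change, SKO over wild type, was 0.042 over the members and 0.012 over all genes tested. Among the members, 11 kept their call and direction in all 15 alternatives that changed the scaling, filter, test, model or libraries at the same threshold (a stricter p or a 2-fold minimum left fewer): Bub3, Bub1, Dsn1, Ska2, Cenpq, Cenph, Cenpx, Cenps, Cenpp, Birc5 and Cenpf.

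**Figure D1:**
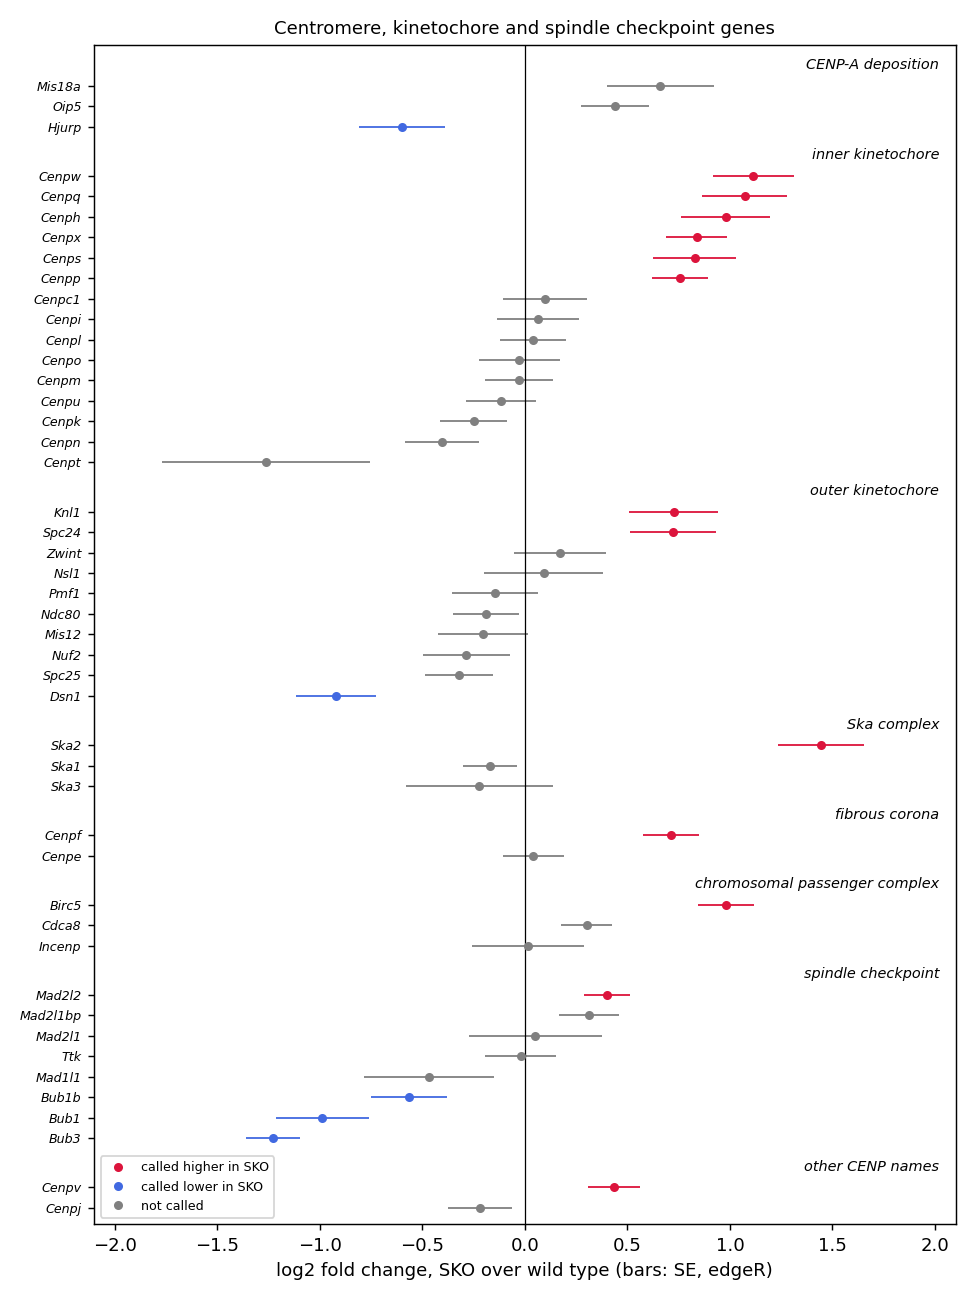
Log2 fold change (SKO over wild type, horizontal axis) of the genes described, arranged by role, with bars of 1 standard error from edgeR (3 libraries a group) and colours for called higher, called lower and not called. The 5 genes called lower lie between -1.23 (Bub3) and -0.57 (Bub1b), and the 13 called higher between 0.40 (Mad2l2) and 1.44 (Ska2).

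Promoter windows of RefSeq (GRCm38.p6, 250 bases before to 50 after the annotated start) were found for 42 of the 47 genes. They were searched on both strands for the letters TTTGAA (the cell cycle homology region, CHR) and CCAAT, known as elements of many genes expressed in dividing cells, TTCCCGC (an E2F element) and TGACGTCA (the cyclic AMP response element, CRE, known as a binding site of the spermatid activator CREM). The windows of 4 members of unequal behaviour are shown, in the direction of transcription, with each CHR, CCAAT and CRE match in capitals: the checkpoint partners Bub3 and Bub1, both called lower, and Ska2 and Cenpw, both called higher.
Bub3, chr7:131560120-131560419, plus strand: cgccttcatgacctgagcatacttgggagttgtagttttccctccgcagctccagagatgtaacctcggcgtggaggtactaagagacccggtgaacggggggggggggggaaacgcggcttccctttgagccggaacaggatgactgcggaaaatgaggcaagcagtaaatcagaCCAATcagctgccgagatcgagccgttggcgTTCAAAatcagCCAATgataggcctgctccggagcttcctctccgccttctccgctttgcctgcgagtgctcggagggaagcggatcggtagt
Bub1, chr2:127831810-127832109, minus strand: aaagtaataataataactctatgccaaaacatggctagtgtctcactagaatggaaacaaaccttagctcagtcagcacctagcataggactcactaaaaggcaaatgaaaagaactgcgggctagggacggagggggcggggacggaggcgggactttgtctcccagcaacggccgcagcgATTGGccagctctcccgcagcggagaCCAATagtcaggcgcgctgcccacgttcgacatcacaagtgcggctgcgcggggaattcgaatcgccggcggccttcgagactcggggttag
Ska2, chr11:87109011-87109310, plus strand: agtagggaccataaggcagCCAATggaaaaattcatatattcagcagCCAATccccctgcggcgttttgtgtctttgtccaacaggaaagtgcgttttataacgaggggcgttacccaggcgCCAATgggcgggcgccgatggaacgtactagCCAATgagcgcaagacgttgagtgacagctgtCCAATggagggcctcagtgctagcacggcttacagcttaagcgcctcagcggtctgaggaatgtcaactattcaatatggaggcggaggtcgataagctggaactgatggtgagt
Cenpw, chr10:30200491-30200790, minus strand: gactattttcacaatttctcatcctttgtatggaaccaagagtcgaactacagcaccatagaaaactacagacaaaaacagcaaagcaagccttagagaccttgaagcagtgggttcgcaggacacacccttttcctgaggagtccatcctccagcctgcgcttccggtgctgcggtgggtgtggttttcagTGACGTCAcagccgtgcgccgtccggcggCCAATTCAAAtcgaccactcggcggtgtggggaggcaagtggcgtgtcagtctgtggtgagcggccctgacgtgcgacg
The table holds 2 annotated starts of Bub3, and the window of the first is shown. It holds CCAAT from 74 and 32 bases before the start and, between these, a CHR on the opposite strand from 43 bases before it, which from the other start are 198, 156 and 167 bases away. The Bub1 window holds CCAAT from 68 bases before the start, on the opposite strand, and from 42 bases before it. It holds no match to the exact CHR letters TTTGAA, the only form searched. The Ska2 window holds 5 CCAAT matches, from 231, 203, 128, 97 and 65 bases before the start. In the Cenpw window a CRE begins 58 bases before the start, and a CCAAT from 29 bases and an opposite-strand CHR from 25 bases before it share 1 base. Among the 42 members a CHR was in the windows of 15 (35.7%, against 20.2% of all 27025 genes with a window), CCAAT in 26 (61.9% against 41.1%), the E2F letters in 9 (21.4% against 5.29%) and the CRE letters in 4 (9.52% against 2.03%). Of the members with a window, CHR matched 3 of the 12 called higher, 3 of the 5 called lower and 9 of the 25 not called, and CCAAT matched 7 of the 12, 4 of the 5 and 15 of the 25. In the same order, the E2F letters matched 2, 1 and 6 members and the CRE letters 1, 0 and 3. All 4 windows shown hold matches, which was not so for every window read. Those of Dsn1, called lower, and Birc5, called higher, held 0 matches to the CHR, CCAAT or CRE letters. The window of Cenpf, called higher, held 1 CHR and 2 CCAAT. These are matches of letters, and no binding was measured. In GENCODE M21 (GRCm38) the genes themselves span chr7:131560222-131571895 (Bub3), chr2:127801122-127831865 (Bub1), chr11:87109234-87124635 (Ska2) and chr10:30194569-30200560 (Cenpw), and, of the other members in both directions, Dsn1 lies at chr2:156995265-157007154 and Birc5 at chr11:117849251-117855743.

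Hjurp, whose protein carries CENP-A to centromeres, was measured at 17.7, 12.5 and 22.4 CPM in SKO replicates 1, 2 and 3, against 25.6, 29.2 and 25.01 CPM in the wild-type replicates. All SKO values lay below all wild-type values, with SKO replicate 3 nearest to them. The log2 fold change was -0.60 ± 0.21 (edgeR adjusted p = 0.0440), close to the threshold, and without any single library other than SKO replicate 3 the adjusted p was 0.0797 to 0.140 (without SKO replicate 1 0.0901, SKO replicate 2 0.110, wild-type replicate 1 0.0923, replicate 2 0.140 and replicate 3 0.0797). It was also not called after correction for transcript length and GC content (-0.31, adjusted p = 0.188) or with upper quartile factors (0.0598). Oip5 and Mis18a, of the Mis18 complex, which licenses the centromere for new CENP-A, were not called. Oip5, the Mis18 beta gene, had 14.5, 18.8 and 14.3 CPM in SKO and 11.6, 11.97 and 11.5 CPM in wild type, with no overlap of the groups (log2 fold change 0.44 ± 0.17, edgeR adjusted p = 0.0572). Of the Oip5 exon bases, 9.7% lie under Nusap1 on the other strand, so its reads may be shared. Mis18a had 4.38, 7.33 and 8.24 CPM in SKO and 4.36, 4.67 and 3.59 CPM in wild type, and these groups overlapped (log2 fold change 0.66 ± 0.26, edgeR adjusted p = 0.0663). Oip5 passed the threshold without SKO replicate 3 (adjusted p = 0.0329), with upper quartile factors (0.0429), with the filter of 1 CPM (0.0400) and with DESeq2 (0.0487). Mis18a passed it without SKO replicate 1 (0.0153) and with DESeq2 (0.0490).

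The inner kinetochore genes had 15 members, of which 6 were called higher, none was called lower (1 of the 15, Cenpn, lay wholly below wild type without passing the test) and 9 were not called, where 42.0% of all genes tested were called. Cenpc1, whose protein bridges the CENP-A nucleosome and the Mis12 complex, had 12.8, 11.3 and 7.96 CPM in SKO and 9.06, 11.1 and 9.86 CPM in wild type. These values overlapped, and the log2 fold change of 0.097 ± 0.20 did not pass the test (edgeR adjusted p = 0.735). In the Cenpc1 transcript, 319 bases match Gtdc1 at 95.9%.

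The histone fold proteins CENP-T, CENP-W, CENP-S and CENP-X bind DNA together. Cenpw had 172, 196 and 296 CPM in SKO, against 105, 95.2 and 106 CPM in wild type. Every SKO library was above every wild-type library, SKO replicate 3 most of all, and the log2 fold change was 1.11 ± 0.20 (edgeR adjusted p = 0.00170). This call ended when counts were corrected for transcript length and GC content (0.22, adjusted p = 0.468). Cenpx stood at 52.3, 51.7 and 49.3 CPM in SKO and 31.1, 24.4 and 30.3 CPM in wild type, and Cenps at 10.1, 10.9 and 14.7 CPM in SKO and 6.83, 5.73 and 7.57 CPM in wild type. Both rose without overlap, with log2 fold changes of 0.84 ± 0.15 and 0.83 ± 0.20 (adjusted p by edgeR = 0.00175 and 0.00925). Cenpt, the partner of Cenpw, was at most 1.72 CPM in any library, with 0.661, 0.612 and 0.297 CPM in SKO and 0.613, 1.45 and 1.72 CPM in wild type. Its log2 fold change of -1.26 ± 0.51 did not pass the test (edgeR adjusted p = 0.0710), though it did without wild-type replicate 1 (0.0345), with DESeq2 (0.0470) and with library totals (0.0344).

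CENP-O, CENP-P, CENP-Q and CENP-U form a further inner complex that also binds microtubules and, through CENP-U, Polo-like kinase. Cenpq had 21.1, 21.8 and 14.3 CPM in SKO and 10.7, 7.99 and 8.48 CPM in wild type. It rose by 1.07 ± 0.21 on the log2 scale (edgeR adjusted p = 0.00283), with SKO replicate 3 lowest among the SKO libraries and still above all wild-type ones. Cenpp had 59.3, 67.1 and 63.7 CPM in SKO and 39.2, 34.1 and 39.3 CPM in wild type, which is a log2 change of 0.76 ± 0.14 (adjusted p by edgeR = 0.00200), and 12.3% of its exon bases lie under Ippk on the other strand, where unstranded counting cannot separate reads. Cenpo (-0.028 ± 0.20) and Cenpu (-0.12 ± 0.17) did not pass the test (edgeR adjusted p = 0.923 and 0.619). They too share exon bases with genes on the other strand, 19.0% of Cenpo with Adcy3 and 26.7% of Cenpu with Primpol.

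In the CENP-H, CENP-I, CENP-K and CENP-M complex, which links CENP-C to CENP-T, Cenph alone was called. It had 6.57, 8.33 and 9.27 CPM in SKO and 3.80, 3.60 and 4.86 CPM in wild type, with no overlap, and rose by 0.98 ± 0.22 on the log2 scale (edgeR adjusted p = 0.00546). Cenpk had 43.6, 53.5 and 47.1 CPM in SKO and 52.1, 50.7 and 68.7 CPM in wild type, a log2 fold change of -0.25 ± 0.16 that did not pass the test (edgeR adjusted p = 0.249). With the length and GC correction Cenpk was -1.31 and passed it (6.42e-05), and with library totals -0.49 (adjusted p = 0.0327). Cenpm was at -0.031 ± 0.17 and Cenpi at 0.065 ± 0.20 (edgeR adjusted p = 0.901 and 0.823). Cenpi is the X-linked member, and 62.6% of the 720 X-linked genes tested were called higher in SKO. The CENP-L and CENP-N pair, which reads the CENP-A nucleosome, was not called. Cenpn had 273, 261 and 166 CPM in SKO and 311, 313 and 301 CPM in wild type, wholly below wild type but with SKO replicate 3 far under the other SKO libraries (log2 fold change -0.40 ± 0.18, edgeR adjusted p = 0.102, and 0.0339 without that library). Cenpl was 0.041 ± 0.16 (edgeR adjusted p = 0.863).

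In the outer kinetochore, the network of Knl1, the Mis12 complex and the Ndc80 complex with Zwint, 2 of 10 genes were called higher, 1 was called lower and 7 were not called, again beside 42.0% of all genes tested. Dsn1, the Mis12 complex subunit that Aurora B phosphorylates to strengthen its hold on CENP-C, had 15.8, 15.05 and 10.1 CPM in SKO, against 23.6, 28.7 and 25.2 CPM in wild type. Every SKO value lay below every wild-type value, and Dsn1 fell by 0.92 ± 0.19 on the log2 scale (edgeR adjusted p = 0.00445). The other Mis12 complex genes were not called. Mis12 itself had 3.66, 4.81 and 3.33 CPM in SKO and 4.29, 4.82 and 4.49 CPM in wild type (log2 fold change -0.21 ± 0.22, edgeR adjusted p = 0.482). Of the Mis12 exon bases, 7.7% lie under Derl2 on the other strand. Nsl1 was 0.091 ± 0.29 and Pmf1 -0.15 ± 0.21 (edgeR adjusted p = 0.827 and 0.615).

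Knl1, the scaffold on which the Bub proteins assemble, had 23.6, 22.1 and 14.5 CPM in SKO and 10.4, 14.6 and 11.4 CPM in wild type. SKO replicate 3 and wild-type replicate 2 were level, so the groups overlapped, although the log2 fold change of 0.73 ± 0.22 passed the test (edgeR adjusted p = 0.0230). That call ended without replicate 1 or 2 of SKO (0.0963 and 0.0890), without replicate 1 or 3 of wild type (0.0954 and 0.0786), and with library totals (0.0915). Zwint, which binds Knl1, was 0.17 ± 0.22 on the log2 scale (edgeR adjusted p = 0.573).

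Among the Ndc80 complex genes, which encode the rod that reaches the microtubule, only Spc24 was called. Spc24 had 15.7, 17.9 and 26.5 CPM in SKO and 12.1, 10.96 and 13.3 CPM in wild type, and rose by 0.72 ± 0.21 in log2 (edgeR adjusted p = 0.0202), with SKO replicate 3 well above the other libraries. It was not called without wild-type replicate 1 or 2 (0.0640 and 0.0816) or with library totals (0.105). Ndc80 had 25.2, 30.9 and 22.00 CPM in SKO and 29.96, 30.00 and 29.1 CPM in wild type, which overlapped (log2 fold change -0.19 ± 0.16, edgeR adjusted p = 0.377). In the Ndc80 transcript, 303 bases match 2700099C18Rik at 95.05%. Nuf2 had 120.2, 131 and 71.1 CPM in SKO and 124, 125 and 145 CPM in wild type, and Spc25 98.8, 111 and 76.97 CPM in SKO and 121, 104 and 133 CPM in wild type. In both of these SKO replicate 3 was the lowest of the 6 libraries, and neither passed the test (log2 fold changes -0.28 ± 0.21 and -0.32 ± 0.17, adjusted p by edgeR = 0.310 and 0.149). With the length and GC correction both did, at -0.43 and -0.49 (adjusted p = 0.0440 and 0.0111). With library totals they were -0.54 and -0.57 (0.0461 and 0.0127), and Ndc80 was -0.43 (0.0415).

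The Ska complex follows the ends of microtubules as they shorten. Ska2 had 4.92, 5.31 and 5.21 CPM in SKO, against 1.98, 1.74 and 1.96 CPM in wild type. The 3 SKO libraries were close to each other and far above wild type, and the log2 fold change of 1.44 ± 0.21 was the largest in size among the 18 called members (edgeR adjusted p = 0.000630). Of the Ska2 exon bases, 10.1% lie under Gm11491 on the other strand, and 360 bases of its transcript match the processed copy Ska2l-ps at 97.2%, so its reads may be shared. Ska1 (-0.17 ± 0.13) and Ska3 (-0.22 ± 0.36) were not called (edgeR adjusted p = 0.331 and 0.650).

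Cenpf and Cenpe encode the large coiled-coil protein and the kinesin motor of the fibrous corona, the outermost layer that catches microtubules. Cenpf had 96.8, 108 and 108 CPM in SKO and 67.6, 67.7 and 56.3 CPM in wild type, rising by 0.71 ± 0.14 on the log2 scale with no overlap (edgeR adjusted p = 0.00269). Cenpe had 122, 123 and 91.3 CPM in SKO and 104, 117 and 106 CPM in wild type, with overlap and a log2 change of 0.042 ± 0.15 (edgeR adjusted p = 0.847). The 2 remaining members carry the stem but belong to none of these complexes. Cenpv, a centromere protein gene with the highest level of the 47, had 862, 876 and 998 CPM in SKO and 690.1, 606 and 726 CPM in wild type (log2 fold change 0.44 ± 0.13, edgeR adjusted p = 0.0204). Its call ended without wild-type replicate 1 or 2 (0.0736 and 0.0856) and with library totals (0.20, adjusted p = 0.238). Cenpj, needed to build centrioles, was -0.22 ± 0.16 (edgeR adjusted p = 0.294).

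The chromosomal passenger complex brings an Aurora kinase to the inner centromere, where it releases wrongly attached microtubules. Birc5, which encodes its subunit survivin, had 217, 224 and 272 CPM in SKO and 124, 110.0 and 127 CPM in wild type. The lowest SKO value was well above the highest wild-type value, and the log2 fold change was 0.98 ± 0.14 (edgeR adjusted p = 0.000522). Cdca8, the borealin gene, had 69.2, 74.2 and 69.01 CPM in SKO and 59.7, 55.9 and 56.8 CPM in wild type, apart but not called (log2 fold change 0.30 ± 0.13, edgeR adjusted p = 0.0794). Incenp, the scaffold, had 13.3, 10.4 and 20.9 CPM in SKO and 13.6, 18.8 and 11.7 CPM in wild type, with SKO replicate 3 the highest and SKO replicate 2 the lowest of the 6 libraries (log2 fold change 0.016 ± 0.27, edgeR adjusted p = 0.970).

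The spindle checkpoint genes held 3 of the 5 members called lower. Of the 8 genes in this group, 3 were called lower, 1 was called higher and 4 were not called. Among all genes tested 42.0% were called, and 20.9% were called lower. Bub3, which docks the Bub kinases onto Knl1, had 34.4, 33.9 and 30.4 CPM in SKO, against 78.4, 73.5 and 79.6 CPM in wild type. The groups were far apart relative to their spread, and Bub3 fell by 1.23 ± 0.13 on the log2 scale (edgeR adjusted p = 0.000135), with a range of -1.47 to -1.04 over the 15 alternatives that give a fold change of their own. Bub1, the kinase that marks inner centromeres through histone H2A, had 168, 186 and 95.5 CPM in SKO and 296, 264 and 330.1 CPM in wild type. It fell by 0.99 ± 0.23 (edgeR adjusted p = 0.00653), and SKO replicate 3 was far under the other SKO libraries, without which the log2 fold change was -0.78. Bub1b, the gene of BubR1, which holds CDC20 within the checkpoint complex, had 11.8, 10.4 and 13.96 CPM in SKO and 16.7, 21.3 and 15.6 CPM in wild type. It fell by 0.57 ± 0.18 (edgeR adjusted p = 0.0331) and was not called without replicate 1 or 2 of SKO (adjusted p = 0.0791 and 0.101) or of wild type (0.0686 and 0.135). With the length and GC correction it was -0.20 (adjusted p = 0.345).

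Of the Mad genes and Ttk, Mad2l2 was the only one called. Mad2l1, the gene of Mad2 itself, had 2.44, 1.69 and 1.98 CPM in SKO and 1.65, 1.45 and 2.79 CPM in wild type, which overlapped (log2 fold change 0.050 ± 0.32, edgeR adjusted p = 0.917), and 454 bases of its transcript match the predicted gene Gm42430 at 95.4%. Mad1l1, which recruits Mad2 to kinetochores, was -0.47 ± 0.32 (edgeR adjusted p = 0.263). Ttk, the Mps1 kinase that starts the signal, had 56.8, 59.2 and 39.5 CPM in SKO and 53.2, 55.7 and 48.8 CPM in wild type (log2 fold change -0.021 ± 0.17, edgeR adjusted p = 0.935). Mad2l1bp, the gene of p31comet, which helps take the checkpoint complex apart, had 40.9, 38.1 and 45.1 CPM in SKO and 36.7, 31.6 and 31.7 CPM in wild type, apart but not called (log2 fold change 0.31 ± 0.14, edgeR adjusted p = 0.110). Mad2l2, a Mad2 relative known as REV7 and best known for its work in DNA repair, had 629, 595 and 612 CPM in SKO and 480.3, 442 and 468 CPM in wild type. It rose by 0.40 ± 0.11 on the log2 scale (edgeR adjusted p = 0.0173) but was not called without wild-type replicate 1, 2 or 3 (0.0674, 0.0687 and 0.0713) or with library totals (0.16, adjusted p = 0.260). The difference between the Bub and Mad genes was not tested.

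**Figure D2:**
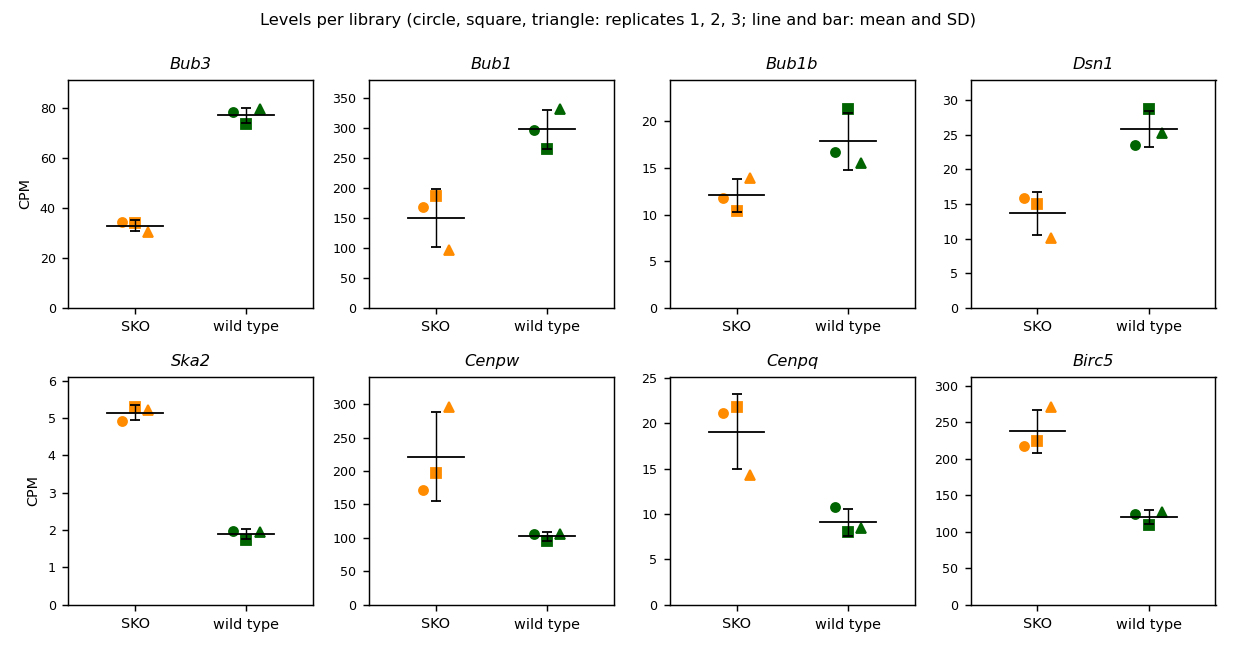
CPM (vertical axes, linear from 0) of Bub3, Bub1, Bub1b, Dsn1, Ska2, Cenpw, Cenpq and Birc5 in the 3 SKO libraries, left, and the 3 wild-type libraries, right, with lines at the mean and bars of 1 SD. The SKO symbols lie below the wild-type symbols for the first 4 genes and above them for the other genes, and SKO replicate 3 (triangle) stands off from the other SKO libraries for Bub1, Dsn1, Cenpw and Cenpq.

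Kinetochore proteins work in complexes of fixed make-up, so ratios of CPM per kb between the messages of 15 partner pairs were compared across the 6 libraries. The pairs join members of known complexes and were picked with the single genes' results known, so the ratios restate those results and are a description. In each library the first gene's CPM per kb of transcript was divided by the second's, a quantity that no scaling of a whole library changes, although the length and GC correction acts gene by gene. The groups did not overlap for 9 of the 15 pairs, with the ratio higher in SKO for 6 and lower for 3. Of all single genes tested 55.6% did not overlap either, but the share over ratios of other gene pairs was not computed. With 3 libraries a group the exact two-sided permutation test cannot go below p = 0.1, which is 0.167 after adjustment over the 15 pairs, so no ratio could pass the threshold. The ratio of Cenph to Cenpk was 0.147, 0.152 and 0.192 in SKO and 0.0710, 0.0691 and 0.0688 in wild type, and that of Cenpq to Cenpu was 0.286, 0.292 and 0.283 in SKO and 0.152, 0.122 and 0.107 in wild type. Both ratios were higher in every SKO library than in any wild-type library. The ratio of Spc24 to Spc25 was 0.178, 0.181 and 0.384 in SKO and 0.112, 0.118 and 0.112 in wild type, with SKO replicate 3 the highest. Birc5 to Cdca8 stood at 4.20, 4.03 and 5.25 in SKO and 2.78, 2.63 and 2.98 in wild type, Bub1b to Bub3 at 0.207, 0.186 and 0.278 in SKO and 0.129, 0.175 and 0.118 in wild type, and Cenpl to Cenpn at 0.246, 0.280 and 0.301 in SKO and 0.202, 0.205 and 0.192 in wild type. The ratios that were lower in SKO were Dsn1 to Nsl1, at 17.3, 19.8 and 8.08 in SKO and 26.4, 31.8 and 26.5 in wild type, Cenpo to Cenpp, at 0.0228, 0.0212 and 0.0193 in SKO and 0.0343, 0.0351 and 0.0392 in wild type, and Cenpt to Cenpw. By contrast Bub1 to Bub3, the pair of which both genes were called lower, was 3.16, 3.55 and 2.04 in SKO and 2.45, 2.33 and 2.69 in wild type, and Cenps to Cenpx, both called higher, 0.121, 0.133 and 0.189 in SKO and 0.139, 0.148 and 0.158 in wild type. Those groups overlapped, as they did for Mis12 to Pmf1, Ndc80 to Nuf2, Knl1 to Zwint and Mis18a to Oip5.

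**Figure D3:**
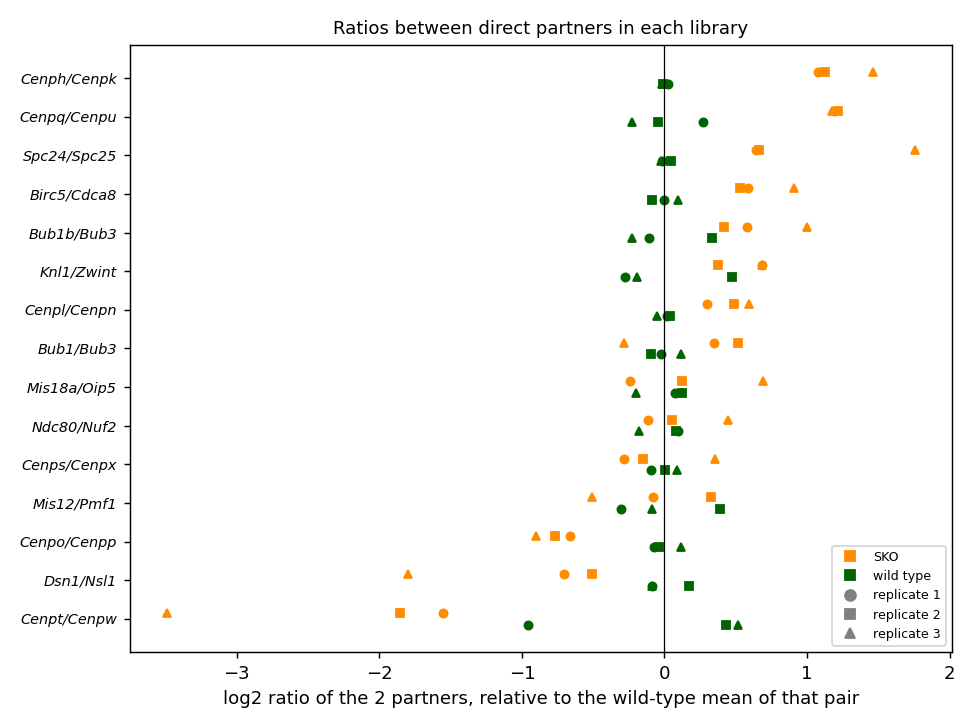
Log2 of the ratio of CPM per kb between 2 partner genes (horizontal axis), set to 0 at the wild-type mean of each pair, in each SKO and wild-type library (symbols mark the replicate). The ratios Cenph/Cenpk, Cenpq/Cenpu and Spc24/Spc25 lie to the right of wild type and Cenpt/Cenpw to the left in all SKO libraries, and Cenps/Cenpx and Bub1/Bub3 straddle it.

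Genes of the same pathway outside the symbol rule were read from the same fit. Of 32 other kinetochore and checkpoint genes, 6 were called higher and 12 lower (56.2% called, against 42.0% of all genes tested), with a median log2 fold change of -0.23, against 0.012 over all genes tested. Aurkc, the Aurora kinase of the germ line that can take the place of Aurora B in the passenger complex, had 13.7, 16.1 and 15.3 CPM in SKO and 72.9, 72.1 and 69.5 CPM in wild type (log2 fold change -2.25 ± 0.14, edgeR adjusted p = 1.21e-05). Aurkb, named after its values were seen, had 11.5, 11.4 and 6.77 CPM in SKO and 15.9, 16.99 and 15.7 CPM in wild type (-0.71 ± 0.21, edgeR adjusted p = 0.0239), and was not called without wild-type replicate 1, 2 or 3 (0.0629, 0.0800 and 0.0571) or with the length and GC correction (0.0527). Both kinase genes of the complex were thus called lower in SKO and its survivin gene Birc5 higher. Ckap5, a microtubule polymerase gene, had 22.8, 16.98 and 15.8 CPM in SKO and 45.9, 53.00 and 50.6 CPM in wild type (-1.43 ± 0.18, edgeR adjusted p = 0.000260), and Plk1, the Polo-like kinase gene, 121, 84.01 and 95.5 CPM in SKO and 227, 216 and 203 CPM in wild type (-1.10 ± 0.16, edgeR adjusted p = 0.000546). Cdc20, the checkpoint's target, likewise named after its values were seen, had 101, 77.6 and 75.8 CPM in SKO and 163, 211 and 154 CPM in wild type (-1.05 ± 0.17, edgeR adjusted p = 0.00112).

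On the other side, Mapre1, which encodes the microtubule end-binding protein EB1, had 44.9, 43.1 and 43.7 CPM in SKO and 21.2, 20.3 and 21.99 CPM in wild type (1.05 ± 0.13, edgeR adjusted p = 0.000313). Itgb3bp, the CENP-R gene and so a partner of Cenpo, Cenpp, Cenpq and Cenpu, had 273, 298 and 292 CPM in SKO and 153, 135 and 171 CPM in wild type (0.91 ± 0.13, edgeR adjusted p = 0.000600). Sgo1, a shugoshin gene whose protein guards cohesion at centromeres, had 3.76, 4.18 and 2.46 CPM in SKO and 1.14, 0.358 and 1.01 CPM in wild type (2.05 ± 0.42, edgeR adjusted p = 0.00394).

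Of 20 genes of the anaphase promoting complex and its partners, the machinery that the checkpoint restrains, 7 were called higher and 3 lower, where 21.2% and 20.9% of all genes tested were called in those directions. Pttg1, the securin gene, had 168, 189.7 and 205 CPM in SKO and 101, 90.4 and 99.8 CPM in wild type (0.95 ± 0.13, edgeR adjusted p = 0.000465). Anapc10, a substrate-binding subunit gene, had a log2 fold change of 0.92 ± 0.13 and Ube2c, the gene of its ubiquitin-conjugating enzyme, of 0.81 ± 0.14 (edgeR adjusted p = 0.000553 and 0.00149). Cdc23 was -0.80 ± 0.19 (edgeR adjusted p = 0.00725). Anapc2, the cullin subunit gene, was -0.95 ± 0.21 (edgeR adjusted p = 0.00513) but -0.46 with the length and GC correction (adjusted p = 0.0521). Fzr1, the gene of the co-activator CDH1, was -0.45 ± 0.14 (edgeR adjusted p = 0.0278), turned to 0.13 with that correction, and was not called without SKO replicate 2 or any wild-type replicate (adjusted p = 0.0753 to 0.0862; wild-type replicate 1 0.0812 and replicate 2 0.0830). Of 31 replication and proliferation genes, 2 were called higher and 9 lower (35.5% called, against 42.0% of all genes tested). Their levels in these sorted cells were unequal, with wild-type means of 514 CPM for Ccnb1, 212 CPM for Pcna and 1.72 CPM for Mki67. The list therefore cannot be read as a measure of cycling cells, and which cells carried these messages was not tested. Mcm7, a subunit of the replicative helicase, was -1.67 ± 0.16, the replication licensing gene Cdc6 -1.62 ± 0.23 and the ribonucleotide reductase gene Rrm2 -1.25 ± 0.19 (log2 fold changes, edgeR adjusted p = 7.07e-05, 0.000514 and 0.000875), while the condensin gene Smc4 was 1.05 ± 0.11 and the sliding clamp gene Pcna 0.51 ± 0.12 (0.000126 and 0.00881). The Pcna call ended with library totals (0.101). Other condensin genes of the list, Smc2, Ncapg and Ncaph, were called lower (-0.71, -0.89 and -1.03, edgeR adjusted p = 0.0052, 0.021 and 0.0063). Ncapd2 was not called (-0.33, edgeR adjusted p = 0.335). Of the other helicase subunit genes, Mcm3, Mcm4, Mcm5 and Mcm6 were not called.

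Levels between genes are compared per kilobase of the transcript with the longest coding sequence. In wild-type libraries 38 of the 47 genes lay above the median of 2.54 CPM per kb over 19203 genes. In wild type Cenpv led, with 884 ± 72.4 CPM per kb in SKO and 653 ± 59.8 in wild type, then came Mad2l2 with 399 ± 11.01 in SKO and 302 ± 12.7 in wild type, Cenpn with 132 ± 33.1 in SKO and 175 ± 3.63 in wild type, Birc5 with 251 ± 31.2 in SKO and 127 ± 9.64 in wild type, and Bub1 with 43.8 ± 13.96 in SKO and 86.8 ± 9.60 in wild type. Bub1 thus had more message per length than its partner Bub3, which stood at 14.8 ± 0.996 CPM per kb in SKO and 34.8 ± 1.44 CPM per kb in wild type. Birc5 and Cenpn stood in the opposite order in the SKO libraries from that in wild type. Mad2l1 was lowest in wild type, at 0.260 ± 0.0956 CPM per kb, and at 0.269 ± 0.04995 in SKO, over a long annotated transcript.

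SKO replicate 3 lay outside the range of the other SKO libraries for most members. It was below both for 25 of 47 (53.2%, against 38.2% of all genes tested) and above both for 16 (34.0% against 39.8%). Well below the mean of the other SKO libraries were Ska3, Cenpt, Bub1, Nuf2 and Zwint (log2 differences of -1.23 to -0.80), and well above it Incenp, Cenpw, Spc24, Hjurp, Nsl1 and Mis18a (0.49 to 0.81). The calls of Bub3, Dsn1, Ska2, Cenpp, Cenpx and Birc5 stood with and without that library.

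The calls also varied with transcript length. Of the 16 shortest transcripts (700 to 1532 bases) 8 were called higher and 0 lower by edgeR, with a median log2 fold change of 0.55, where 30.6% of all genes of that length range were called higher, 15.1% lower, and the median was 0.25. In the middle 16 (1535 to 2931 bases) 2 were called higher and 2 lower, with a median of -0.18 (16.3% and 24.2% of all genes of that length, median -0.12). In the 15 longest (3003 to 11130 bases) 3 were called higher and 3 lower, with a median of 0.050 (13.2% and 26.1%, median -0.17). After correction of each library's counts for transcript length and GC content, 15 of the 18 calls stood, those of Hjurp, Bub1b and Cenpw were lost, and those of Nuf2, Spc25 and Cenpk, all lower, were gained. Cenpw and Cenpk had the lowest GC content of the members, 0.358 and 0.361. The parts of length and GC content in this correction were not separated.

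The choice of scaling moved all genes together. With library totals in place of the TMM factors the median log2 fold change of all genes tested was -0.228 and that of the members -0.205. Nuf2, Spc25, Cenpt, Cenpn, Cenpk, Ndc80 and Ska1 were then called lower, and Knl1, Mad2l2, Spc24 and Cenpv were no longer called. With the length and GC correction 12 were called higher (20.9% of all genes tested) and 6 lower (20.7%). Over these 3 ways of scaling, 25 of the 47 genes were called at least once and 11 under each of them. The directions given here are relative to the median gene.

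**Figure D4:**
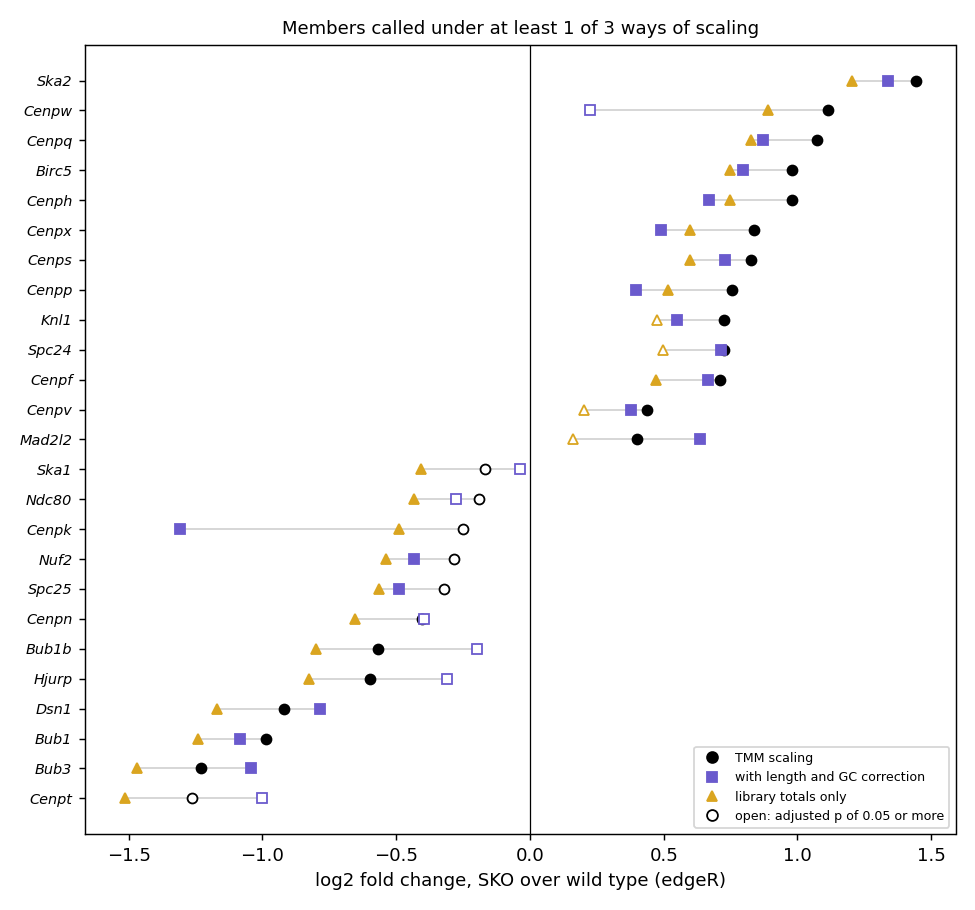
Log2 fold change (SKO over wild type, horizontal axis, edgeR) of the 25 genes called under at least 1 of TMM scaling, TMM with the length and GC correction, and library totals, with filled symbols where the adjusted p was under 0.05. The symbols for library totals lie to the left of those for TMM, and Cenpw and Cenpk move most with the length and GC correction.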

How the data were processed

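Polyadenylated RNA of sorted mouse round spermatids was measured in 6 libraries, 3 of SKO and 3 of wild type. The authors deposited raw counts per gene. The submitters' processing notes name the build GRCm38 (mm10) and the tools HISAT2 2.0.5, featureCounts 1.5.0-p3 of Subread, Trim Galore 0.6.4 and FastQC. Which annotation release was used, whether counting was stranded and how reads with several alignments were counted is not stated there. Columns were joined to labels by genotype and replicate number. Totals were 52055193 to 60970931 counts, and 3 counts equal 0.0481 to 0.0620 CPM, which covers counting error only. Nothing states that replicates are separate animals, so p-values measure the spread between these samples, which may be technical.

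edgeR 4.0.16 in R 4.3.3 was run on all 22770 rows with filterByExpr (minimum counts 10 and 15; 2994 genes below it), TMM factors and the quasi-likelihood test of group alone, two-sided, with Benjamini-Hochberg adjustment over 19776 genes. The standard error is the absolute log2 fold change over the square root of F, and values are given as mean ± SD or log2 fold change ± SE with n = 3. Transcript lengths are of the GENCODE M21 transcript whose coding sequence is longest.

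The alternatives were library totals, upper quartile factors, DESeq2 size factors, DESeq2 1.42.0 itself, no filter, 1 CPM in 3 libraries, limma-voom (limma 3.58.1), a replicate block, a per-library loess correction (span 0.3) for length and GC content, a threshold of 0.01, a 2-fold minimum, and each replicate left out. The steps were tested on simulated data. The naming rule took, in each role group, up to 4 called genes a direction whose groups do not overlap, by adjusted p, a set of fixed names (Cenpc1, Knl1, Mis12, Ndc80, Birc5, Bub1b, Bub3, Mad2l1 and Ttk), and 3 a direction from each other list; the remaining members were added, except 1 that is counted but not reported here. The members, lists, partner pairs, motifs and 4 promoters shown were chosen with earlier results of these data known.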

Additional observations from a re-analysis of the deposited data

How the results depend on the processing

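Of the 18 calls among the members, 11 stood in all 15 alternatives that keep the threshold of 0.05 and set no minimum fold. The numbers higher and lower over all genes tested were 2611 and 2553 at an adjusted p under 0.01, and 2321 and 2562 past 2-fold. With a replicate left out, 3064 to 4329 of all genes tested were called higher and 3025 to 4766 lower. With library totals these numbers were 2831 and 5666, and in the main fit 4185 and 4127. The counts for all genes thus shifted with the settings too. The members called higher were 3 past 2-fold, and 9 to 15 with a replicate left out. Those called lower were 12 with library totals, 3 with the replicate block, 3 at an adjusted p under 0.01, 1 past 2-fold, and 3 to 6 with a replicate left out (3 without SKO replicate 1, SKO replicate 2 or wild-type replicate 2). Of the other kinetochore and checkpoint genes, 2 were higher past 2-fold, and 7 were lower with the length and GC correction, 6 under 0.01, 5 past 2-fold and 8 to 14 with a replicate left out. Of the anaphase promoting complex genes, 0 were higher and 0 lower past 2-fold, 1 was lower with the length and GC correction, and 2 to 3 with a replicate left out. Proliferation genes called higher were 1 with library totals, 5 with the length and GC correction, 1 past 2-fold and 2 to 5 with a replicate left out (5 without SKO replicate 3). The cause of these shifts was not tested.

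Signs turned for genes that were not called, and for 1 called gene, Fzr1, at 0.13 with the length and GC correction. With that correction Cenpl was -0.025, Cenpo 0.30, Mad2l1 -0.032, Mad1l1 0.071 and Cenpc1 -0.033. With library totals Cenpi was -0.19, Incenp -0.21, Zwint -0.080, Mad2l1 -0.18, Cenpl -0.21, Cenpe -0.20, Cenpc1 -0.15 and Nsl1 -0.14. With upper quartile factors Cenpo was 0.0064, Cenpm 0.0048 and Ttk 0.012. Incenp was -0.018 with limma-voom and -0.016 with the replicate block. With a replicate left out the log2 fold change ran -0.099 to 0.24 for Cenpi, -0.11 to 0.15 for Cenpl, -0.13 to 0.39 for Mad2l1, -0.076 to 0.23 for Cenpc1, -0.062 to 0.14 for Cenpe, -0.052 to 0.36 for Zwint, -0.35 to 0.23 for Incenp, -0.24 to 0.012 for Cenpu, -0.73 to 0.059 for Ska3, -0.16 to 0.11 for Ttk, -0.16 to 0.22 for Nsl1, -0.11 to 0.062 for Cenpm and -0.11 to 0.069 for Cenpo.

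Replicate numbers are shared between the genotypes. Deviations from the group mean in libraries of the same number had correlations of -0.022, -0.051 and -0.065 over genes. Those of unlike numbers ran from -0.026 to 0.074. With means of 3 libraries a group, these values cannot tell whether libraries of a number share a litter, day or batch, which was not tested. With the replicate block 11 members were called higher and 3 lower (3552 and 3666 of all genes), and the adjusted p of Hjurp, Bub1b, Mad2l2 and Cenpv was 0.0590, 0.0757, 0.0725 and 0.0563. With 3 libraries a group, genes of a few CPM such as Cenpt, Mad2l1 and Nsl1 had standard errors of 0.29 to 0.51. Changes past 2-fold could also be missed there, as Cenpt, at a log2 fold change of -1.26, was not called.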
